A study of Homo sapiens with 6 samples.

Results

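Semaphorins are secreted or membrane-bound guidance signals, plexins are the receptors that bind most of them, and neuropilins are co-receptors that help plexins to bind the secreted forms. The 10 genes described here are the semaphorins SEMA6D, SEMA3C, SEMA3F, SEMA4B and SEMA4C, the plexins PLXNA1, PLXNB1 and PLXNB2, and the neuropilins NRP1 and NRP2, out of 22152 genes in the deposited table. SEMA6D was picked on its fall in the comparison reported here, and the other 9 genes are relatives of it by name and role. The list was drawn with earlier results of these data known. All 10 genes passed the filter on low values that left 14792 genes to test.

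The study asked which transcripts move when keratinocytes carry more miR-21-3p, the passenger strand of the miR-21 hairpin. HaCaT cells, a spontaneously immortalized human keratinocyte line, were transfected with a synthetic miR-21-3p mimic or with a negative control (NC) mimic, each at 1 nM. Per the labels, RNA was taken 48 h later, polyadenylated RNA was enriched, and 3 biological replicates of each group were sequenced, giving 6 libraries. The mimic itself is not measured in polyadenylated RNA, so its level does not check the labels.

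Class 3 semaphorins are secreted and act through complexes of a plexin with a neuropilin, while classes 4, 5 and 6 are transmembrane proteins that mostly bind plexins directly. Plexins pass the signal on through small GTPases to the actin cytoskeleton and to integrin adhesion. In skin, keratinocytes make semaphorins that steer sensory nerve fibres, and in mouse epidermis plexin B2 on keratinocytes is bound by semaphorin 4D on resident T cells.

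The deposited values are read counts divided by 1 factor per library, called normalized counts here, and they are written to 3 significant digits. The reads recovered from them came to 24.81, 24.98 and 27.99 M reads in miR-21-3p replicates 1, 2 and 3, and to 24.40, 24.53 and 26.17 M in NC replicates 1, 2 and 3. Rounding moves a value by at most 0.5%. The lowest read number of any of the 10 genes in any library was 470, for NRP1, with a 95% Poisson interval of 428 to 514 reads that covers counting error only.

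The keratinocyte label was checked against 10 marker genes, all of which were in the table. Their summed level was 12176 to 13033 CPM (recovered reads as a share of the library, scaled to 1 M) over the 6 libraries, with KRT5, a basal keratin, the most abundant at 4868 to 5467 CPM. The stress keratin KRT6A was higher with miR-21-3p (log2 difference 0.34; limma, Benjamini-Hochberg adjusted p = 0.00208), the integrin ITGB4 was lower (-0.26; limma, adjusted p = 0.0385, called only without NC replicate 2 or miR-21-3p replicate 2 when 1 library was left out, and otherwise at an adjusted p of 0.135 to 0.145), and the other 8 were not called. Of the markers of other cells, 1 of 7 for fibroblasts (COL1A1, 14.5 to 22.0 CPM), 2 of 5 for endothelium (VWF and CDH5, together 34.7 to 47.1 CPM, of which VWF 28.1 to 31.7 CPM) and 1 of 4 for melanocytes (PMEL, 4.73 to 6.11 CPM) were in the table, and none of these was at 0. The other markers of those cells and those of immune and neural cells were not analysed here. The endothelial cadherin CDH5 was at 165, 178 and 122 normalized counts with miR-21-3p and at 477, 286 and 393 with NC. Its log2 difference was -1.30 (limma, Benjamini-Hochberg adjusted p = 0.00262). VWF differed by -0.02 (limma, adjusted p = 0.893), and its sign changed with the library left out (-0.04 without NC replicate 1 to 0.03 without NC replicate 2). COL1A1 differed by -0.34 (limma, adjusted p = 0.0641), by -0.48 without NC replicate 2 (limma, adjusted p = 0.00186) and by -0.22 without NC replicate 1 (limma, adjusted p = 0.212). DESeq2 called it (adjusted p = 0.0255), as did edgeR with upper-quartile factors (adjusted p = 0.0487) but not with TMM (adjusted p = 0.0526). PMEL differed by 0.07 (limma, adjusted p = 0.744), by -0.0030 without NC replicate 2 and by 0.18 without NC replicate 1. Their part in the values that follow was not tested.

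The libraries of each group were not alike. On the first principal component of the log2 values, which held 46.8% of the variance, NC replicates 1, 2 and 3 stood at 21.3, 1.94 and 13.3 and the miR-21-3p replicates at -11.9, -6.87 and -17.8. NC replicate 2 thus stood nearest to the miR-21-3p libraries. The same library was above the mean of its group in 1 of the 10 genes, and NC replicate 1 was the highest NC library, ties included, in 8 of them. The median deviation from the group mean over the 10 genes was 0.08 in NC replicate 1 and -0.08 in NC replicate 2 on the log2 scale, and over all genes it was within 0.004 of 0 in every library. Among the miR-21-3p libraries, replicate 2 was the highest in 7 of the 10 genes and replicate 3 was above the mean in 1.

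**Figure D1:**
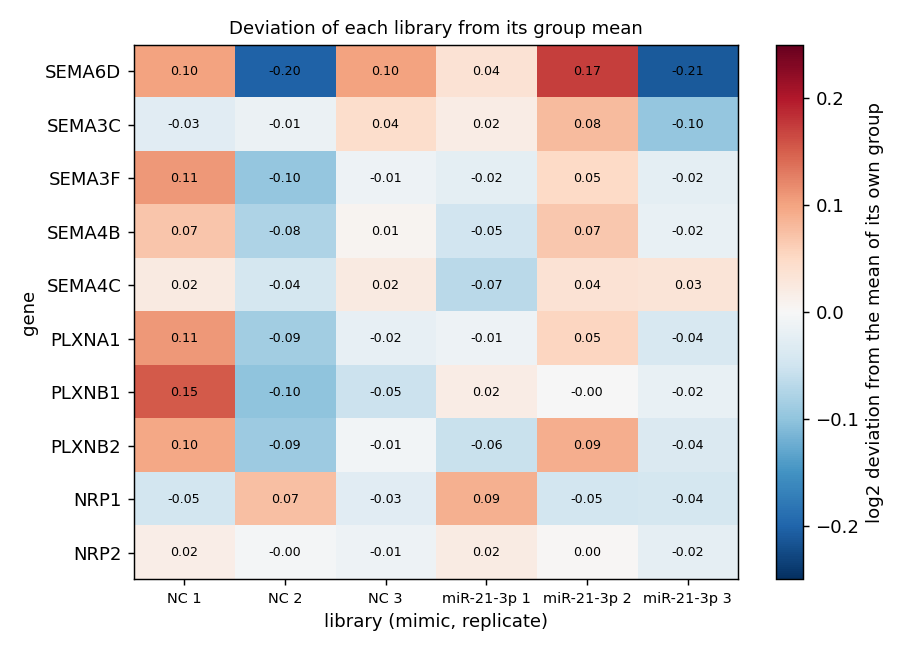
Deviation of each library (columns) from the mean of its own group for each of the 10 genes (rows), on the log2(normalized count + 1) scale, with red above and blue below the mean. NC replicate 2 is below its group mean in 9 of the 10 rows, and SEMA6D spans -0.21 to 0.17, the widest range of the 10.

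Among the ligands, SEMA6D is a transmembrane class 6 semaphorin that binds plexin A1. It stood at 1130, 915 and 1130 normalized counts in NC replicates 1, 2 and 3 and at 627, 690 and 529 in miR-21-3p replicates 1, 2 and 3. The groups did not overlap, NC replicate 2 was the lowest NC library and miR-21-3p replicate 2 the highest of the miR-21-3p libraries. The group means were 1058 ± 124 and 615 ± 81.1 (SD, n = 3), so the miR-21-3p mean was 58.1% of the NC mean and the log2 difference was -0.78. SEMA6D was chosen by this difference, which is therefore a description and carries no test. When 1 library was left out, the difference ran from -0.88 (without NC replicate 2) to -0.68 (without miR-21-3p replicate 3). In a bulk sample, fewer cells that carry a transcript and less of it per cell cannot be told apart.

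Of the 9 other genes, 3 were called lower and 0 higher in the miR-21-3p libraries, against 4.66% of all genes tested called lower and 6.11% called higher (limma on log2(normalized count + 1), Benjamini-Hochberg adjusted p under 0.05 over 14792 genes). At an unadjusted p under 0.05 the counts were 5 lower and 0 higher, where 13.2% of all genes tested were lower and 15.3% higher. DESeq2 on the recovered reads called 4 lower and 0 higher, and edgeR called 3 and 0. The miR-21-3p libraries all lay below the NC libraries in 4 of the 9 genes and all above in 0, where 14.8% and 16.5% of all genes tested did so. Their median log2 difference was -0.14, beside 0.0044 over all genes tested, and 8 of the 9 were below 0, beside 49.0% of all genes. Since the list was drawn with results known, these shares are a description of the list. The count of 3 moved with the library left out, and so did the count over all genes tested. It was 0 without NC replicate 3 and 1 without NC replicate 1, miR-21-3p replicate 1 or miR-21-3p replicate 3. It was 2 without miR-21-3p replicate 2 and 5 without NC replicate 2. Over all 14792 genes, 690 were called lower with all 6 libraries. That number was 81 without NC replicate 3, 229 without NC replicate 1 and 131 without miR-21-3p replicate 1. It was 163 without miR-21-3p replicate 3, 641 without miR-21-3p replicate 2 and 1330 without NC replicate 2.

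**Figure D2:**
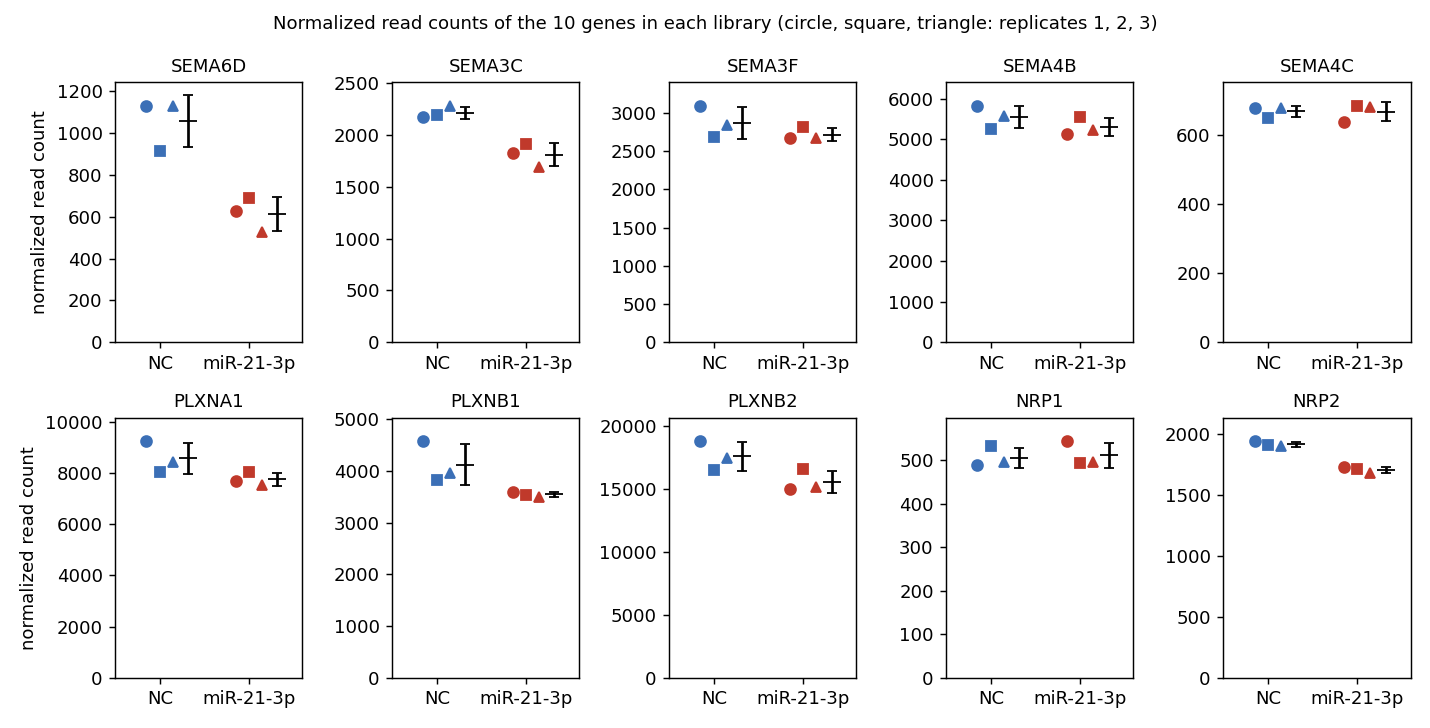
Normalized read counts (vertical axes, each from 0) of the 10 genes in the 3 NC and the 3 miR-21-3p libraries; circles, squares and triangles are replicates 1, 2 and 3, and the black bar with whiskers is the mean ± SD. The groups are separate for SEMA6D, SEMA3C, PLXNA1, PLXNB1 and NRP2 and overlap for the other 5 genes.

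SEMA3C, a secreted class 3 semaphorin that signals through either neuropilin, fell. Its values were 2170, 2190 and 2280 normalized counts in the NC replicates and 1830, 1910 and 1690 in the miR-21-3p replicates. Every miR-21-3p library was below every NC library. The log2 difference was -0.29 (SE 0.05, 95% interval -0.41 to -0.17; limma, Benjamini-Hochberg adjusted p = 0.00942), and the miR-21-3p mean was 81.8% of the NC mean. The call was lost in 1 of 6 cases when a library was left out, without NC replicate 3, where the difference was -0.27 (limma, adjusted p = 0.0636).

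The other ligands of the list were not called. SEMA3F, a secreted class 3 semaphorin that prefers neuropilin 2, was at 3090, 2680 and 2840 normalized counts with NC and at 2670, 2810 and 2670 with miR-21-3p. SEMA4B, a transmembrane class 4 semaphorin, was at 5820, 5260 and 5570 with NC and at 5120, 5540 and 5220 with miR-21-3p. The groups overlapped for both, with NC replicate 1 the highest library in each. The log2 differences were -0.08 for SEMA3F (95% interval -0.20 to 0.04; limma, Benjamini-Hochberg adjusted p = 0.386) and -0.07 for SEMA4B (-0.18 to 0.04; limma, adjusted p = 0.402), and leaving out 1 library gave -0.13 (without NC replicate 2) to -0.02 (without NC replicate 1) for SEMA3F and -0.11 to -0.03, without the same libraries, for SEMA4B. SEMA4C, a class 4 semaphorin that binds plexin B2, was at 677, 647 and 677 with NC and at 636, 683 and 681 with miR-21-3p. Its difference of -0.0012 had an interval of -0.14 to 0.13 (limma, adjusted p = 0.992), so a difference as large as that of SEMA3C lay outside it. The sign of SEMA4C changed with the library left out (-0.02 without NC replicate 2 to 0.03 without miR-21-3p replicate 1).

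Among the receptors, PLXNB1 is the receptor for semaphorin 4D and can form complexes with the receptor tyrosine kinases MET and ERBB2. PLXNB1 was at 4570, 3830 and 3960 normalized counts in the NC replicates and at 3590, 3540 and 3500 in the miR-21-3p replicates. The groups did not overlap, and NC replicate 1 stood well above the other NC libraries. It fell by 0.21 on the log2 scale (SE 0.06, 95% interval -0.34 to -0.08; limma, Benjamini-Hochberg adjusted p = 0.0414). Without NC replicate 1 the difference was -0.14 (limma, adjusted p = 0.107), and without NC replicate 2 it was -0.26 (limma, adjusted p = 0.00587). Leaving out NC replicate 3 or any 1 miR-21-3p library also ended the call (limma, adjusted p = 0.0752 to 0.122), with differences of -0.24 to -0.20.

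PLXNB2, the receptor for semaphorin 4C and also bound by semaphorin 4D, was at 18800, 16500 and 17500 normalized counts with NC and at 15000, 16600 and 15200 with miR-21-3p. NC replicate 2 and miR-21-3p replicate 2 overlapped. The log2 difference of -0.17 (95% interval -0.30 to -0.05) was not called (limma, Benjamini-Hochberg adjusted p = 0.0722). It was called by DESeq2 (adjusted p = 0.0358), and by limma without NC replicate 2 (-0.22, adjusted p = 0.0145) and without miR-21-3p replicate 2 (-0.22, adjusted p = 0.0389). The other 4 libraries left out in turn gave differences of -0.18 to -0.12 (limma, adjusted p = 0.187 to 0.253), and edgeR did not call it (adjusted p = 0.0695). PLXNA1 pairs with neuropilins for the secreted semaphorins and binds SEMA6D directly. It was at 9240, 8060 and 8440 with NC and at 7680, 8040 and 7540 with miR-21-3p, so the groups were separate, though NC replicate 2 and miR-21-3p replicate 2 almost met. The log2 difference of -0.14 (95% interval -0.26 to -0.03) was not called (limma, adjusted p = 0.101), and was called when NC replicate 2 was left out (-0.19; limma, adjusted p = 0.0221). Without NC replicate 1 it was -0.09 (limma, adjusted p = 0.299).

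The neuropilins differed from each other in their values. NRP2, the co-receptor for semaphorin 3F and a receptor for VEGF-C, was at 1940, 1910 and 1900 normalized counts in the NC replicates and at 1730, 1710 and 1680 in the miR-21-3p replicates. The groups did not overlap, and the spread within each was small beside the gap between them. NRP2 fell by 0.17 on the log2 scale (SE 0.05, 95% interval -0.27 to -0.07; limma, Benjamini-Hochberg adjusted p = 0.0362), to 89.0% of the NC mean. The difference was -0.18 to -0.16 when any 1 library was left out. The call was then kept only without NC replicate 2 (limma, adjusted p = 0.0360), and the adjusted p was 0.0642 without miR-21-3p replicate 2, 0.0866 without NC replicate 1, 0.111 without miR-21-3p replicate 1 and 0.119 without NC replicate 3 or miR-21-3p replicate 3 (limma). NRP1, the co-receptor for semaphorin 3A and for VEGF-A, was at 490, 533 and 496 with NC and at 544, 495 and 496 with miR-21-3p. The groups overlapped, and the difference of 0.01 had an interval of -0.14 to 0.17 (limma, adjusted p = 0.912), and its sign changed with the library left out (-0.03 without miR-21-3p replicate 1 to 0.05 without NC replicate 2). Whether the change of NRP2 differed from that of NRP1 was not tested.

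Of the rest of the family, 15 genes were in the table and all passed the filter; SEMA3E, SEMA3G, SEMA5B, SEMA6A, PLXNB3 and PLXNC1 were not analysed here. In these 15 genes, 3 were called higher and 1 lower (limma, Benjamini-Hochberg adjusted p over all genes), beside the 6.11% and 4.66% of all genes. Their median log2 difference was -0.03. SEMA5A, a transmembrane semaphorin with thrombospondin repeats, was at 9990, 8840 and 9950 normalized counts with NC and at 8240, 8440 and 7340 with miR-21-3p. The groups did not overlap, and SEMA5A fell by 0.26 on the log2 scale (limma, adjusted p = 0.0225).

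The 3 family genes called higher were a plexin and 2 semaphorins. PLXND1, the receptor for semaphorin 3E, was at 45.8, 59.8 and 56.6 normalized counts with NC and at 81.6, 81.9 and 93.3 with miR-21-3p. All miR-21-3p libraries were above all NC libraries, and the log2 difference was 0.66 (SE 0.15; limma, Benjamini-Hochberg adjusted p = 0.0215). SEMA3D, a secreted class 3 semaphorin, was at 1350, 1570 and 1500 with NC and at 1790, 1690 and 1730 with miR-21-3p, a log2 difference of 0.24 (limma, adjusted p = 0.0271). SEMA7A, which is held in the membrane by a lipid anchor and binds integrin beta 1, was at 410, 384 and 353 with NC and at 475, 437 and 478 with miR-21-3p. The groups of SEMA3D and of SEMA7A did not overlap either. The difference of SEMA7A was 0.28 (limma, adjusted p = 0.0435). Its call was lost with DESeq2 (adjusted p = 0.0592), with no filter on low values (limma, adjusted p = 0.0516) and with a replicate block (limma, adjusted p = 0.0705). SEMA5A, PLXND1, SEMA3D and SEMA7A each kept their call without NC replicate 2 and without miR-21-3p replicate 2, and lost it without any 1 of the other 4 libraries (limma, adjusted p = 0.0514 to 0.185).

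The 11 family genes outside the list that were not called lay between -0.78 and 0.61 on the log2 scale. At the low end, SEMA4G was at 67.7, 57.7 and 57.6 normalized counts with NC and at 45.9, 49.2 and 18.8 with miR-21-3p. Its groups were separate, but miR-21-3p replicate 3 was far below the rest, and the difference of -0.78 had an interval of -1.42 to -0.14 (limma, Benjamini-Hochberg adjusted p = 0.105) and was -0.35 without that library. At the high end, PLXNA4, a receptor for class 3 and class 6 semaphorins, was at 35.4, 40.2 and 29.3 with NC and at 56.1, 48.1 and 56.5 with miR-21-3p. Those groups were separate too, and the difference of 0.61 was just outside the call (limma, adjusted p = 0.0516), while edgeR called it (adjusted p = 0.0475) and DESeq2 did not (adjusted p = 0.140). Leaving out 1 library gave a limma adjusted p from 0.0246 (without NC replicate 2) to 0.191 (without NC replicate 3). The remaining 9 genes were SEMA6C (-0.29), SEMA3B (-0.24), PLXNA3 (-0.13), PLXNA2 (-0.11), SEMA4D (-0.09), SEMA4F (-0.03), SEMA6B (0.04), SEMA4A (0.05) and SEMA3A (0.09), each given by its log2 difference, with limma adjusted p = 0.111 to 0.905. Single libraries moved most of these in both directions. Leaving out 1 library in turn gave -0.41 to -0.11 for SEMA6C, -0.19 to -0.04 for PLXNA3, -0.16 to -0.02 for SEMA4D and 0.04 to 0.12 for SEMA3A, in each case with NC replicate 1 left out at the end nearer to 0 and NC replicate 2 at the other. The range was -0.32 (without miR-21-3p replicate 1) to -0.13 (without miR-21-3p replicate 3) for SEMA3B, 0.0056 (without NC replicate 3) to 0.09 (without NC replicate 2) for SEMA4A and -0.12 to -0.09 for PLXNA2. SEMA4F and SEMA6B changed sign when 1 library was left out.

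**Figure D3:**
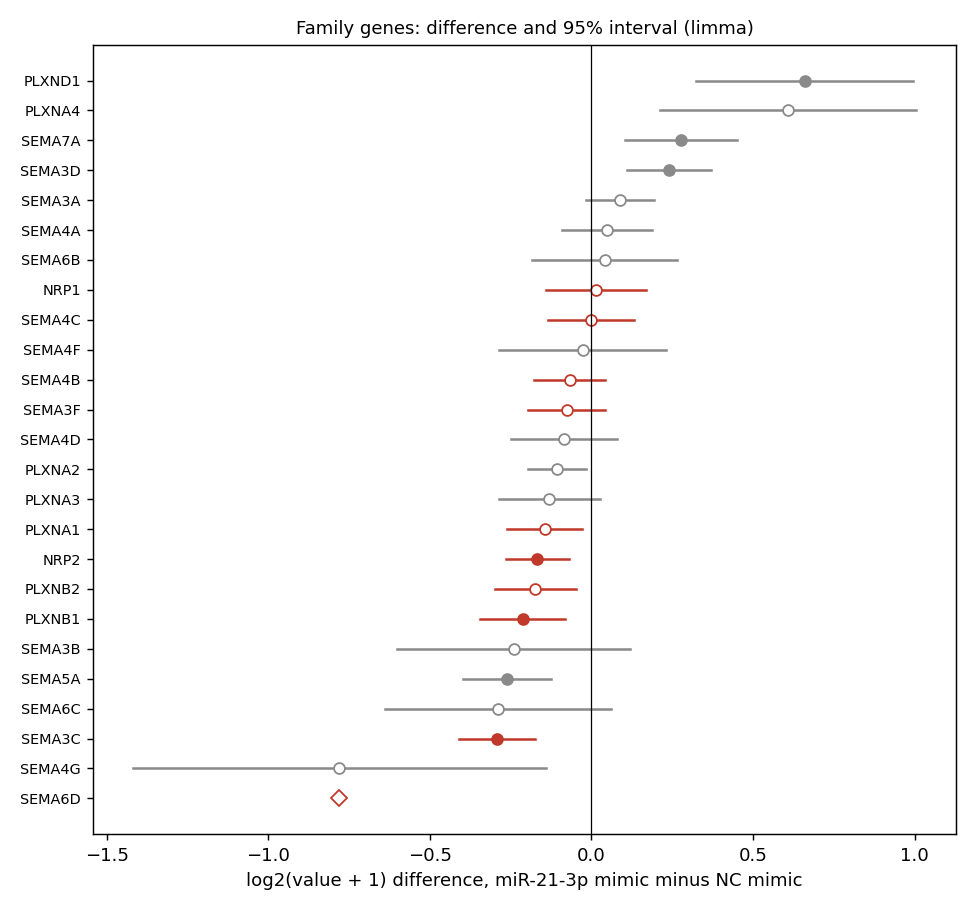
Log2(normalized count + 1) difference, miR-21-3p minus NC (horizontal axis), for the 25 family genes in the table, with 95% intervals from limma; red marks the 10 genes of the list, grey the other 15, and filled circles are called at an adjusted p under 0.05. SEMA6D is drawn as an open diamond with no interval because it was picked on this difference, and PLXND1 at 0.66 and SEMA6D at -0.78 mark the ends.

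Levels of different genes can be compared only per length, and were set as RPKM, which is CPM per kilobase of exon, with exon lengths from GENCODE 29. The annotation used for the counting is not given in the sources used here, so the lengths may differ from those counted. PLXNB2 was the most abundant of the 25 family genes at a mean of 90.1 RPKM over the 6 libraries, and no library of it reached down to the next gene. SEMA4B, PLXNA1, SEMA5A and SEMA3F followed at mean levels of 30.5, 29.4, 28.7 and 22.8 RPKM, and neighbours among these overlapped in their ranges over the libraries. SEMA5A ranked 2 of 25 in the NC libraries and 4 of 25 in the miR-21-3p libraries.

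PLXNA2 (17.4 RPKM), SEMA3A (16.1), PLXNB1 (15.5) and SEMA3C (12.6) came next, again with ranges that overlapped from each to the next, and below them SEMA3D (7.85 RPKM) and PLXNA3 (6.52). NRP2 at 5.14 RPKM was the higher of the neuropilins, and NRP1 stood at 1.74 RPKM. SEMA6D, at 4.86 ± 0.55 RPKM with NC and 2.84 ± 0.35 with miR-21-3p (SD, n = 3), ranked 13 of 25 in the NC libraries and 16 of 25 in the miR-21-3p libraries, with a mean of 3.85 RPKM over all 6. Its range over the libraries overlapped those of its neighbours SEMA4A (4.17 RPKM) above and SEMA6B (2.55 RPKM) below. SEMA7A (4.39 RPKM) and SEMA4C (4.27) also lay in this band, and SEMA4D was at 1.90 RPKM. SEMA7A ranked 16 of 25 in the NC libraries and 13 of 25 in the miR-21-3p libraries. SEMA4F (1.18 RPKM), SEMA6C (0.686), SEMA4G (0.371), SEMA3B (0.361), PLXND1 (0.283) and PLXNA4 (0.107) were the least abundant. PLXND1 ranked 24 of 25 in the NC libraries and 22 of 25 in the miR-21-3p libraries.

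**Figure D4:**
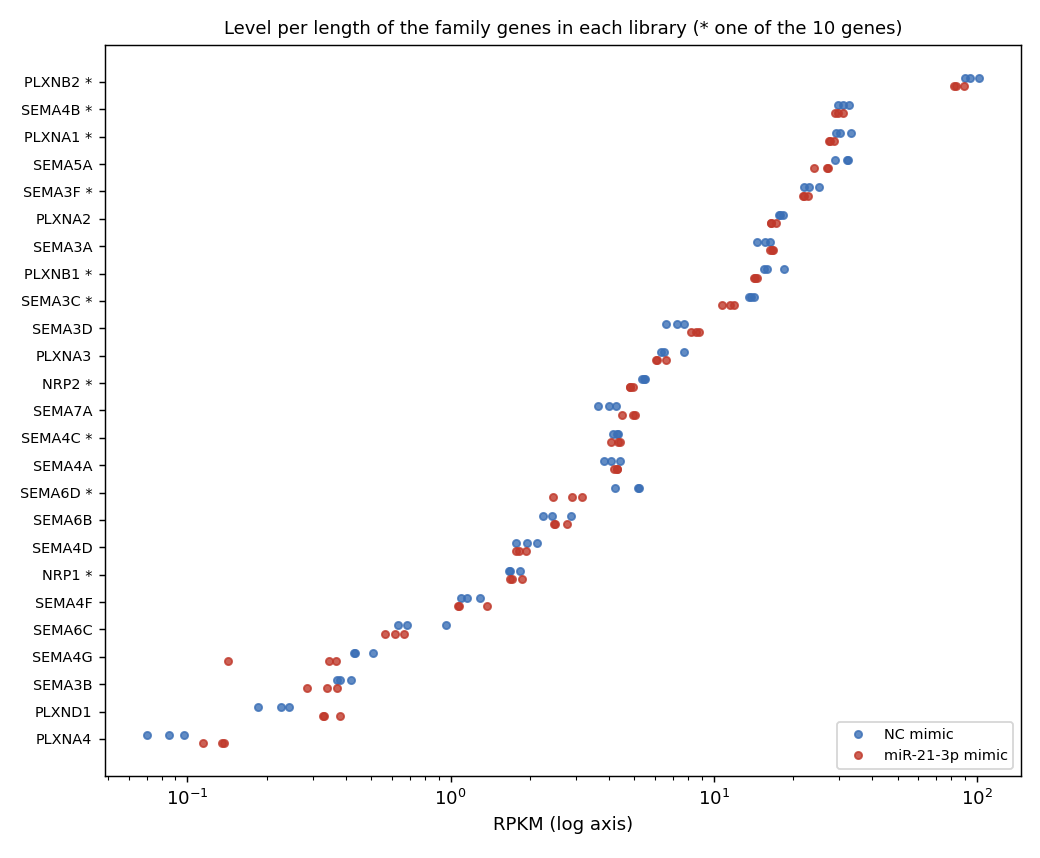
Level per length (RPKM, log axis) of the 25 family genes in each library, ordered by their mean; blue points are the 3 NC and red points the 3 miR-21-3p libraries, and an asterisk marks the 10 genes of the list. PLXNB2 stands alone at the top with a mean of 90.1 RPKM, and SEMA6D lies in the lower part with a mean of 3.85 RPKM.

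The genes most like SEMA6D in pattern were ranked by Pearson's r of log2 CPM over the 6 libraries among 14791 other genes. The 5 highest were MMP13, a collagenase (r = 0.997), UST, a sulfotransferase that acts on glycosaminoglycans (0.997), RNF217, a RING finger protein (0.996), GRAMD1C, a sterol transfer protein (0.996), and PNRC1, a nuclear receptor coactivator (0.996). MMP13 was at 1360, 1030 and 1350 normalized counts with NC and at 754, 798 and 614 with miR-21-3p, so it shared with SEMA6D both the gap between the groups and the low NC replicate 2. Once the group means were taken out, r with SEMA6D was 0.970 to 0.986 for these 5 genes. They were picked by r over the same values, so this second r is not separate evidence of likeness. The libraries and the contrast are the same in each case, so these r are descriptions of 6 points in 2 groups and have no p. For the other 9 genes, r over the 6 libraries was 0.968 for SEMA3C (rank 213) and 0.923 for NRP2 (rank 703). It was 0.890 for PLXNB2, 0.866 for PLXNA1, 0.835 for PLXNB1, 0.704 for SEMA4B and 0.672 for SEMA3F, and it was -0.02 for SEMA4C and -0.30 for NRP1. With the group means taken out, r was 0.717 for SEMA3C, 0.702 for PLXNB2, 0.679 for PLXNA1, 0.670 for SEMA4B, 0.641 for SEMA3F, 0.404 for PLXNB1, 0.08 for SEMA4C, 0.01 for NRP2 and -0.46 for NRP1. The order over the 6 libraries thus rests in part on the gap between the groups, on which SEMA6D was picked.

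The partners of these receptors were taken from a list of 14 co-receptors and receptor partners, of which 7 were in the table. In these, 3 were called higher and 0 lower by limma, beside 6.11% and 4.66% of all genes. At an unadjusted p under 0.05 the counts were 4 higher and 1 lower, beside 15.3% and 13.2%, and the median log2 difference was 0.10. MET, the receptor for hepatocyte growth factor and a partner of plexin B1, was at 2790, 2710 and 2840 normalized counts with NC and at 3720, 3930 and 3690 with miR-21-3p. The groups were far apart compared with their spread, and MET rose by 0.44 on the log2 scale (SE 0.05, 95% interval 0.34 to 0.54; limma, Benjamini-Hochberg adjusted p = 0.000803), a call kept whichever library was left out. Integrin alpha 1 (ITGA1), which pairs with integrin beta 1 to bind SEMA7A, was at 242, 287 and 245 with NC and at 384, 342 and 404 with miR-21-3p. The groups did not overlap, and the difference was 0.55 (limma, adjusted p = 0.00851; 0.0535 without NC replicate 3). L1CAM, an adhesion molecule that binds neuropilin 1, was at 100, 139 and 117 with NC and at 171, 168 and 176 with miR-21-3p, a difference of 0.54 (limma, adjusted p = 0.0220) that was called only without NC replicate 2 or miR-21-3p replicate 2 when 1 library was left out (otherwise limma, adjusted p = 0.0758 to 0.0875). The most abundant partner not called was GIPC1, which binds the tail of neuropilin 1 (0.10; limma, adjusted p = 0.159).

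Neuropilins also bind VEGF ligands, and 4 of 5 listed were in the table, with 1 called lower and 0 higher by limma, beside 4.66% and 6.11% of all genes, and a median log2 difference of -0.17. At an unadjusted p under 0.05 the counts were also 1 lower and 0 higher, beside 13.2% and 15.3%. VEGFD, a ligand of the lymphatic VEGF receptor, was at 107, 82.4 and 89.8 normalized counts with NC and at 67.3, 53.3 and 63.7 with miR-21-3p. The groups were separate, and VEGFD fell by 0.59 on the log2 scale (limma, Benjamini-Hochberg adjusted p = 0.0324), a call kept when 1 library was left out only without NC replicate 2 (otherwise limma, adjusted p = 0.0752 to 0.123). VEGFA, a ligand of neuropilin 1, had the most normalized counts of these ligands, though not the highest level per length. VEGFA was at 1580, 1390 and 1440 with NC and at 1520, 1420 and 1490 with miR-21-3p, a difference of 0.01 (limma, adjusted p = 0.942). The sign of VEGFA changed with the library left out (-0.03 without NC replicate 2 to 0.06 without NC replicate 1). It also changed in edgeR with upper-quartile factors (-0.0050).

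Downstream of the receptors, 22 of 30 listed signalling genes were in the table, with 3 called higher, 1 lower and 18 not called, and a median log2 difference of 0.05. The shares were 13.6% higher and 4.55% lower, beside 6.11% and 4.66% of all genes, so the share called lower was about that of all genes. FARP2, an exchange factor that acts behind the plexin A receptors, was at 1350, 1350 and 1310 normalized counts with NC and at 1640, 1640 and 1680 with miR-21-3p. It rose by 0.31 on the log2 scale (limma, Benjamini-Hochberg adjusted p = 0.00499) and was called whichever library was left out. Cofilin (CFL1), which severs actin filaments, was at 9860, 11500 and 10300 with NC and at 12700, 12100 and 13900 with miR-21-3p. Its difference was 0.29 (limma, adjusted p = 0.0177), and that of DPYSL3, a collapsin response mediator, was 0.34 (limma, adjusted p = 0.0255). ARHGEF11, an exchange factor that binds B plexins, was at 1500, 1500 and 1540 with NC and at 1290, 1340 and 1370 with miR-21-3p. It fell by 0.18 (limma, adjusted p = 0.0358). CFL1 and DPYSL3 were called without NC replicate 2 or miR-21-3p replicate 2 and lost their calls without any 1 of the other libraries, and ARHGEF11 was called only without NC replicate 2 (limma, adjusted p of the lost calls 0.0614 to 0.153). RAC1, the small GTPase and the most abundant gene not called, was at 11500, 11400 and 11500 with NC and at 11600, 11700 and 11400 with miR-21-3p (0.01; limma, adjusted p = 0.869). The difference of RAC1 was 0.0041 without miR-21-3p replicate 2 and 0.02 without miR-21-3p replicate 3.

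All 8 listed proteases that cut semaphorins or their receptors were in the table, and 1 was called higher and 1 lower, beside 6.11% and 4.66% of all genes, with a median log2 difference of 0.06. Both belong to the proprotein convertases, the enzyme family of furin. PCSK5 was at 3810, 4040 and 4100 normalized counts with NC and at 3290, 3220 and 3160 with miR-21-3p, and it fell by 0.30 on the log2 scale (limma, Benjamini-Hochberg adjusted p = 0.00438), whichever library was left out. PCSK6 was at 251, 205 and 255 with NC and at 310, 300 and 328 with miR-21-3p, and it rose by 0.40 (limma, adjusted p = 0.0262). The call of PCSK6 was lost without NC replicate 3, miR-21-3p replicate 1 or miR-21-3p replicate 3 (limma, adjusted p = 0.0673 to 0.102). MMP14, a membrane metalloproteinase and the most abundant gene not called, differed by -0.04 (limma, adjusted p = 0.654). The difference of MMP14 was -0.07 without miR-21-3p replicate 2 and -0.0076 without miR-21-3p replicate 3.

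**Figure D5:**
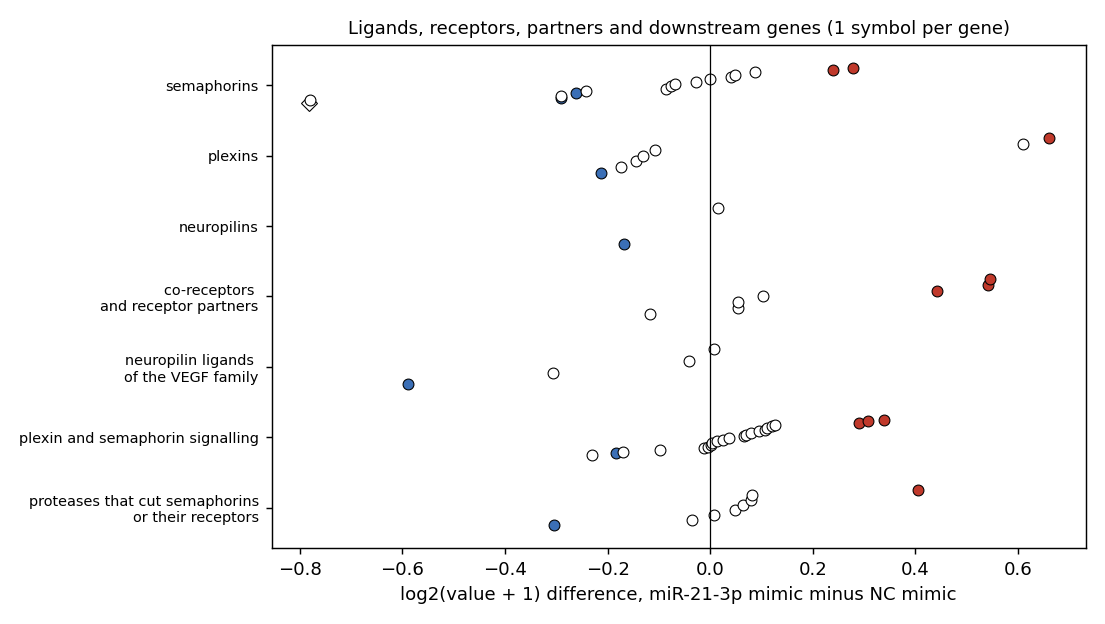
Log2(normalized count + 1) difference, miR-21-3p minus NC (horizontal axis), of every gene in the table for each list (rows, 1 symbol per gene, spread vertically for sight only); red is called higher, blue called lower and white not called by limma, and the diamond is SEMA6D. The 3 partner genes called higher lie from 0.44 to 0.55, and the called VEGF ligand lies at -0.59.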

How the data were processed

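HaCaT polyadenylated RNA from 3 NC and 3 miR-21-3p libraries was sequenced from a stranded mRNA kit per the labels, which were followed here; the study's methods text speaks of small RNA libraries instead. Per the labels, the authors used bcl2fastq 2.18.12, cutadapt 1.15, TopHat2 2.1.1, featureCounts of Subread 1.5.2 and DESeq2; the genome build and annotation are not given in the sources used here. The deposited table holds a signal per gene, namely read counts divided by 1 factor per library, written to 3 significant digits. All value columns matched a library. Of the values under 100, 100% were whole multiples of 1 read within 0.1 of a read, which gave 24.40 to 27.99 M recovered reads per library.

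The planned test assumed counts; since the table holds normalized values, limma 3.58.1 (trended empirical Bayes, R 4.3.3, two-sided) was fitted to log2(value + 1) for the 14792 genes passing edgeR's filterByExpr (minimum 10 reads) on the recovered reads. A fold change on this scale understates that of low genes. P-values were adjusted by the Benjamini-Hochberg method over all 14792 genes, and a gene was called at an adjusted p under 0.05. On the recovered reads, edgeR 4.0.16 (TMM, added after seeing the data) called 880 genes higher and 761 lower, and DESeq2 1.42.0 called 880 and 734; limma called 904 and 690. The scripts were tested on simulated data. Other normalizations, filters, pseudocounts, a replicate block and leaving out each library were tried.

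The members and lists were chosen with earlier results of these data known. All 10 members were named, with every other family gene averaging at least 10 counts, the called genes of each pathway list (at most 5 each way) with the gene of most normalized counts not called, and the 5 genes with the highest Pearson r with SEMA6D. Symbols were matched by Ensembl identifier, and 19987 of 22152 were found in GENCODE 29 for lengths. The figures were drawn with matplotlib 3.10.9.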

Additional observations from a re-analysis of the deposited data

How the results depend on the processing

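Across all genes, 690 were called lower and 904 higher. Leaving out 1 library gave 81 to 1330 lower and 95 to 1627 higher, the lowest counts without NC replicate 3 and the highest without NC replicate 2; with 5 libraries the fit also has fewer samples. For the 9 genes other than SEMA6D the counts were 0 to 5 lower and 0 to 0 higher, and for the 24 family genes other than SEMA6D 0 to 6 lower and 0 to 4 higher. No log2 difference of a called family gene changed sign in any of these fits. The replicate numbers did not pair the libraries: the correlations of deviations between libraries of the same number were -0.0019, -0.20 and -0.16, and 0 of 6 libraries correlated best with their own number. With a replicate block, 511 genes were called lower and 679 higher, 2 of the 9 genes lower and 0 higher, and 3 family genes lower and 2 higher; the calls of NRP2 (limma adjusted p = 0.101), SEMA7A (0.0705), ARHGEF11 (0.0871) and ITGB4 (0.0504) were lost. Under the other settings (DESeq2, edgeR with 3 normalizations, no filter, at least 10 reads in 3 libraries, pseudocounts of 0.5 and 5) the 3 genes called lower kept that call in each, with SEMA6D at -0.80 to -0.78. Upper-quartile factors gave 839 lower and 798 higher. Over the 24 family genes, 4 of these gene-by-setting results lost a call, 5 gained one and 0 reversed, the block included. Of the family genes, SEMA4G, PLXNA4, PLXND1 and SEMA3B had the fewest reads, with 21, 30, 44 and 46 in their lowest library.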

Other observations

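Other guidance families were looked at by name after the values of the semaphorin genes were seen, so their counts are descriptions. Of 17 netrins, SLITs and their receptors, 7 were in the table, and 3 were called lower and 0 higher by limma, with 3 lower and 1 higher at an unadjusted p under 0.05. Netrin 4 (NTN4), a netrin of basement membranes, was at 3240, 2840 and 3110 normalized counts with NC and at 2220, 2460 and 2110 with miR-21-3p. The groups did not overlap, and NTN4 fell by 0.44 on the log2 scale (limma, Benjamini-Hochberg adjusted p = 0.00403), whichever library was left out. The netrin receptor UNC5B was at 11100, 9830 and 10400 with NC and at 9010, 9210 and 8680 with miR-21-3p, a difference of -0.22 (limma, adjusted p = 0.0210), called only without NC replicate 2 or miR-21-3p replicate 2 when 1 library was left out (otherwise limma, adjusted p = 0.0716 to 0.0887). NTN5 was at 548, 351 and 451 with NC and at 342, 318 and 313 with miR-21-3p (-0.45; limma, adjusted p = 0.0433), and it was -0.30 without NC replicate 1 (limma, adjusted p = 0.148) and -0.62 without NC replicate 2. Its call was kept only in that last case when 1 library was left out (otherwise limma, adjusted p = 0.0848 to 0.148), and no filter on low values ended it (limma, adjusted p = 0.0512). The most abundant gene of this list not called was ROBO1, a SLIT receptor (-0.10; limma, adjusted p = 0.379).

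Of 22 ephrins and Eph receptors, which signal between touching cells, 12 were in the table, and 1 was called lower and 0 higher by limma, with 3 lower and 1 higher at an unadjusted p under 0.05. EPHA4, a receptor tyrosine kinase for both ephrin classes, was at 374, 319 and 345 normalized counts with NC and at 257, 211 and 213 with miR-21-3p. The groups were separate, and EPHA4 fell by 0.61 on the log2 scale (limma, Benjamini-Hochberg adjusted p = 0.00671), a call kept whichever library was left out. Of the genes not called, the Eph receptor EPHB2 had the most normalized counts, though not the highest level per length. EPHB2 differed by -0.11 (limma, adjusted p = 0.194). The difference of EPHB2 was -0.15 without miR-21-3p replicate 2 and -0.07 without miR-21-3p replicate 3. Beside these lists stand the 4.66% of all genes called lower and the 6.11% called higher, and at an unadjusted p under 0.05 the 13.2% lower and 15.3% higher.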
